A study of Homo sapiens with 5 samples.

Results

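The homologous recombination (HR) and Fanconi anemia (FA) genes described here were 34 genes chosen by name, of 20033 protein-coding genes on chromosomes 1 to 22, X and Y in GENCODE 44, and all 34 were found in the annotation. For each gene every MYC and HSF1 peak whose interval lay within 1 kb of a transcription start site of any of its transcripts was taken as a promoter peak. The cells were OVCAR8, an established human ovarian carcinoma line, untreated and proliferating, fixed in 1% formaldehyde for 1 minute, with 500000 cells per CUT&RUN reaction. In CUT&RUN an antibody tethers a nuclease to a protein on chromatin and the released DNA is sequenced. There were 2 MYC libraries, 2 HSF1 libraries and 1 IgG control library, and that single IgG library was the background of all 4 peak lists. It is given without a number in the labels and as IgG replicate 2 in the file headers. Nothing in the labels said whether the replicates came from separate cultures, and all results refer to this 1 cell line.

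HR repairs DNA double-strand breaks by copying the intact sister chromatid. Broken ends are sensed and resected, BRCA1, PALB2 and BRCA2 act on the exposed single strand to prepare strand exchange, and motor and annealing proteins act in later steps. The FA core complex attaches ubiquitin to FANCD2 and FANCI at DNA crosslinks, which hands the lesion to the same recombination proteins. Defects in this pathway are common in high-grade serous ovarian cancer and sensitize tumors to PARP inhibitors. MYC is a transcription factor that binds E-boxes (CACGTG) and many active promoters, and HSF1 is the main transcription factor of the heat shock response.

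MYC peaks were found at the promoters of all 34 genes in replicate 1 and of 27 genes in replicate 2, and HSF1 peaks at 6 and 3. MYC replicate 1 covered 55.3% of all protein-coding genes by the same rule and MYC replicate 2 covered 41.2%, while 27 of the 34 genes (79.4%) and 40.1% of all genes had a MYC peak in both lists. HSF1 replicate 1 covered 8.58% of all genes and HSF1 replicate 2 covered 6.85%. In both HSF1 lists RAD52 was the only 1 of the 34 genes with a peak (2.94%, beside 3.49% of all genes), and 8 of the 34 genes (23.5%) had a peak in either HSF1 list, beside 11.9% of all genes. RAD52 was also the only gene with peaks of both factors in both replicates of each, beside 3.05% of all genes. The HR and FA genes had a median of 17.5 annotated start sites per gene and all protein-coding genes a median of 5, so more positions were searched in them.

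At the canonical start site alone, which is 1 position per gene, MYC replicate 1 still had a peak at 34 of 34 genes, beside 50.9% of all genes. MYC replicate 2 had one at 25 genes (73.5%), beside 37.7% of all genes, and both MYC lists had one at the same 25, beside 36.5%. HSF1 had a canonical-start peak in either list at 4 genes (11.8%), beside 9.40% of all genes. In both lists it had one at 0 genes, beside 2.58% of all genes. The high MYC share was therefore measured at the canonical start sites too, and the HSF1 share there lay near that of all genes. A set of 2 lists against 2 cannot pass an exact permutation test, whose smallest two-sided p is 0.333, so the factors are compared without a test. No test was run between gene lists either, and their shares are given beside those of all genes.

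**Figure D1:**
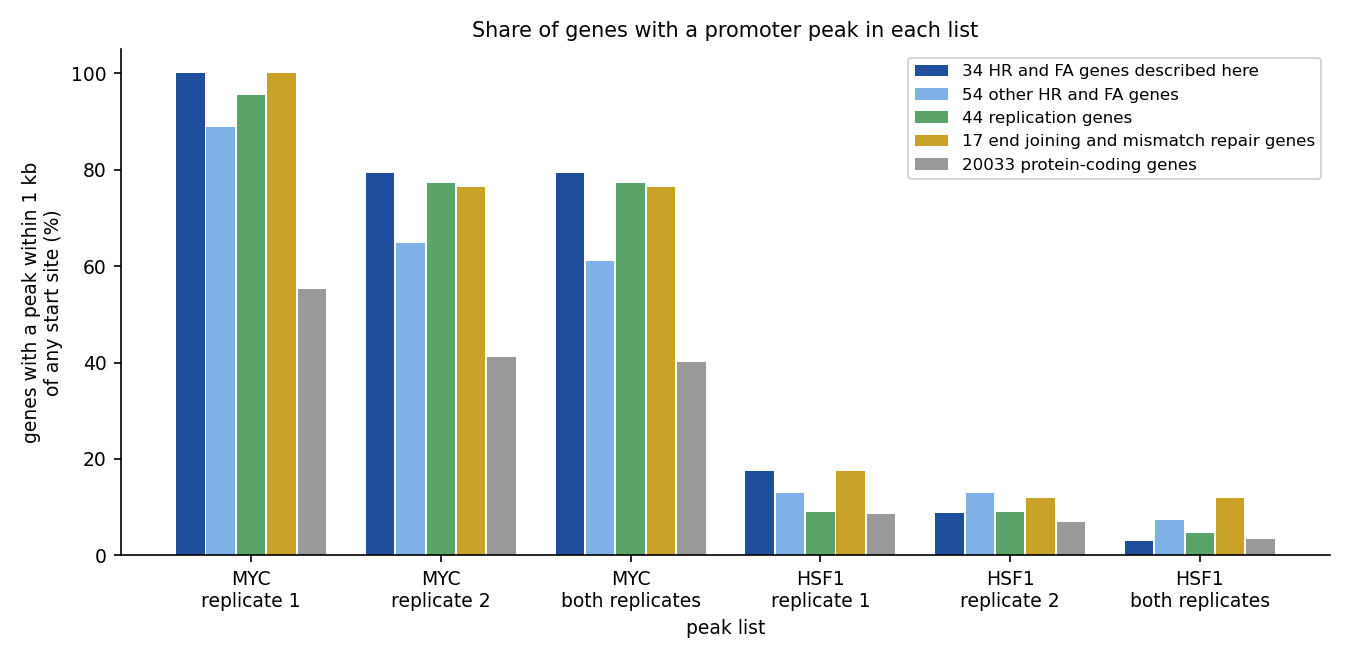
Bars give the percentage of genes (y axis) with a peak within 1 kb of any start site, in each list and in both lists of a factor (x axis), for the 34 HR and FA genes, 3 other lists and all 20033 protein-coding genes. The MYC bars of the 34 genes reach 100% and 79.4%, and their bar for both HSF1 lists stands at 2.94%.

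The lists differ in depth and in threshold. Fragments left after duplicate removal numbered 8265647 to 10084407 in the libraries of the 2 factors and 9306942 in the IgG library. MYC peaks had been called at a p-value of 1e-10 and HSF1 peaks at 1e-04, so numbers of MYC and HSF1 peaks are not on one scale. MYC replicate 1 had the fewest fragments and the most peaks, 25623 beside 13278 in MYC replicate 2, and the HSF1 lists held 6421 and 4459. A gene without a peak in a list is a gene with no peak called at that depth and threshold. Fold enrichment, the measure used below, is the ratio of fragments at the peak summit to the local IgG background.

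Few of the MYC peaks had an E-box near their summit. Among the 27 genes with a MYC peak in both lists, 4 (14.8%) had CACGTG within 100 bp of either summit, beside 11.8% of the 8024 protein-coding genes with such peaks. The sequence was present anywhere in the replicate 1 peak of 9 of the 34 genes (26.5%), beside 25.6% of all genes with a replicate 1 peak. These shares lay close to those of all genes. The 4 sites near a summit, and those of BRCA2 and of the pair of genes with the highest MYC enrichment (FANCF and RAD54L), are shown because they are where the motif meets the MYC peaks. Each is given on the plus strand of GRCh38 with the E-box in capitals. The motif is its own reverse complement and was searched on both strands.
FANCC, chr9:95317677-95317706: cgcgcgcgcgcaCACGTGtcagcagtgcat
RAD50, chr5:132556964-132556993: ggcctagaggccCACGTGatccgcagggcg
ATR, chr3:142578570-142578599: gggaggggagagCACGTGaaacccaagccg
XRCC2, chr7:152675558-152675587: cctaagcagagaCACGTGggctacagggag
BRCA2, chr13:32315448-32315477: gcgtcacggcgtCACGTGgccagcgcgggc
FANCF, chr11:22626057-22626086: aatttccggaacCACGTGcgagatgatgcc
RAD54L, chr1:46247023-46247052: gcccgagcccgcCACGTGgcagtctgggcc
Distances are from the middle of the motif, and the whole motif had to lie in the window. The FANCC E-box lay 63 bp from the summit of MYC replicate 1 and 88 bp from that of replicate 2, and it was the only one within 100 bp of both. The RAD50 E-box spanned the canonical start site and lay 68 and 153 bp from the summits. In ATR these distances were 175 and 56 bp, and in XRCC2 68 and 456 bp. The BRCA2 E-box was 186 and 202 bp away, and those of RAD54L (169 and 112 bp) and FANCF (361 and 345 bp) were also outside the 100 bp window. RAD51D (100 and 118 bp) and FANCD2 (297 and 180 bp) had an E-box in the peak as well. A match is a description of the letters and not evidence that MYC contacted them.

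In the BRCA1, PALB2 and BRCA2 group, which acts between end resection and strand exchange, BRCA2 and PALB2 had MYC peaks at their canonical starts in both replicates and BRCA1 did not. BRCA2, the product of which binds single-stranded DNA at resected ends, had a fold enrichment of 14.8 in MYC replicate 1 and 10.3 in replicate 2, with summits 140 and 156 bp downstream of the start in the untranslated part of exon 1. PALB2, which bridges BRCA1 and BRCA2, had values of 12.2 and 13.4, with summits 118 and 130 bp downstream. Both genes were thus marked at nearly the same base in the 2 libraries. BRIP1, a helicase that binds BRCA1, had values of 12.2 and 8.03. BARD1, the partner of BRCA1 in its ubiquitin ligase, had a peak of 10.9 in MYC replicate 1 only, with the summit 375 bp upstream. None of BRCA2, PALB2, BRIP1 and BARD1 had a promoter peak in either HSF1 list.

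BRCA1 was counted through different positions in different lists. At its canonical start (chr17, position 43125364, minus strand) MYC replicate 1 had a peak at chr17:43125179-43125362 with a pileup of 16 fragments, a fold enrichment of 9.0 and a −log10 p-value of 15.8. MYC replicate 2 and both HSF1 lists had none there. That was a low peak for MYC replicate 1, whose canonical-start peaks at all genes had a median fold enrichment of 14.4. The peaks that gave BRCA1 its higher values lay about 46 kb upstream, within 1 kb of the start of a longer BRCA1 transcript and at the start of NBR1, a separate gene encoding an autophagy receptor. There MYC replicate 1 had a fold enrichment of 25 (chr17:43170050-43171532), MYC replicate 2 one of 7.90 and HSF1 replicate 1 one of 4.58 (chr17:43171117-43171326), and HSF1 replicate 2 had none. The summits were 67 bp upstream, 192 bp downstream and 22 bp upstream of the NBR1 start. A peak at a start shared by neighbouring genes cannot be assigned to either. The MYC replicate 2 and HSF1 replicate 1 intervals there lay 872 bp from the nearest BRCA1 start, the farthest of all the promoter peaks counted, and the nearest interval left out was a MYC replicate 1 peak of 7.41 at 1003 bp from a FANCM start.

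RAD51B, RAD51C, RAD51D, XRCC2 and XRCC3, whose products form complexes that support strand exchange, had the lowest median MYC enrichment of the role groups with more than 2 genes. RAD51C had a fold enrichment of 7.10 in MYC replicate 1 and 6.47 in replicate 2, the lowest mean of the 27 members with a peak in both lists. XRCC2 had 10.1 and 8.66, and the summits of these peaks were 524 bp apart. A lower XRCC2 peak of MYC replicate 1, at 9.32, lay over the canonical start and also overlapped the replicate 2 peak. XRCC3 had 12.01 and 6.98, and RAD51D, the highest of the group, had 16.7 and 9.60. RAD51B had a canonical-start peak of 7.54 in MYC replicate 1 alone, with a pileup of 18. The median of the 4 group means was 9.43, and the range of 6.78 to 13.1 overlapped that of every other group with more than 2 genes. None of these 5 genes had an HSF1 promoter peak.

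The genes of break sensing and end resection all had MYC peaks in both replicates. RAD50, the ATPase of the MRE11 complex, had nearly equal values of 19.4 and 19.7. MRE11, its nuclease, had 12.6 and 11.4, and NBN, the third subunit, had 15.7 and 15.8. RBBP8, which encodes the resection factor CtIP, had 17.9 in MYC replicate 1 and 15.8 in replicate 2. It also had an HSF1 peak of 4.43 in replicate 2 only (chr18:22933464-22933642, a pileup of 6), whose summit lay 13 bp from that of MYC replicate 2. EXO1, the long-range resection nuclease, had 14.2 and 8.95. BLM, the helicase of Bloom syndrome, was the lowest of this group at 9.69 and 6.0.

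Among the checkpoint kinases ATM and ATR, the kinases that detect breaks and stalled forks, had higher MYC values than their downstream kinases. ATM had 21.3 and 15.4, and ATR had 20.5 and 19.2. CHEK1, the kinase activated by ATR, had 12.04 and 8.97, and in each list its value was below both ATM and ATR. CHEK1 was the only member whose 601 bp around the canonical start had an observed over expected CpG ratio of 0.6 or less, at 0.49, and its MYC summits lay 953 and 925 bp downstream of that start, within 109 and 81 bp of another annotated CHEK1 start. CHEK2, the kinase activated by ATM, had 12.6 in MYC replicate 1 only, with the summit 22 bp upstream of the start of HSCB on the other strand. TP53BP1, which protects ends from resection, had 15.4 in MYC replicate 1 only. For ATM, HSF1 replicate 1 had a weak peak (chr11:108222683-108222860, a fold enrichment of 3.25 and a −log10 p-value of 4.58), with the summit 9 bp from that of MYC replicate 1 and between the ATM start and the start of NPAT on the other strand.

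HSF1 peaks of CHEK2 and TP53BP1 were away from their canonical starts. In CHEK2, HSF1 replicate 1 had a peak in intron 5 (chr22:28712674-28712866) with a fold enrichment of 4.20 and no MYC peak over it, 29047 bp downstream of the canonical start. In TP53BP1, HSF1 replicate 1 had a peak of 4.58 at chr15:43510353-43510944, 17588 bp upstream of the canonical start at the start of a longer transcript. MYC replicate 1 had a peak of 14.2 over it with a summit 68 bp away. HSF1 replicate 2 had a peak at neither position.

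The motor and annealing genes held the second highest MYC value and the only gene with both HSF1 lists. RAD54L, a DNA translocase, had fold enrichments of 32.1 and 17.5, with pileups of 80 and 49 fragments. Its summits lay 557 and 614 bp upstream of the canonical start, 137 and 80 bp downstream of another RAD54L start. RAD54B, its relative, had 14.6 and 9.35, with an HSF1 replicate 1 peak of 4.22 and a pileup of 6 that had its summit 313 bp upstream of the start.

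RAD52, which anneals single strands, was measured at 3 separate positions. At its canonical start (chr12, position 949694, minus strand) MYC replicate 1 had a peak of 12.8 (chr12:949205-949919) and the other 3 lists had none. About 41 kb upstream MYC replicate 1 had 12.6 and MYC replicate 2 had 10.4, with summits 250 to 252 bp upstream of the start of ERC1. These intervals lay 478 and 532 bp from the nearest RAD52 start, and their summits lay 920 and 918 bp from it. Near the other end of the gene, at an internal start about 35 kb downstream around exon 10 and intron 10, HSF1 replicate 1 had 5.07 (chr12:914217-914617), HSF1 replicate 2 had 11.4 (chr12:914018-914549) and MYC replicate 2 had 8.63 (chr12:914134-914386). Here MYC replicate 1 had none. The summits of HSF1 replicate 2 and MYC replicate 2 were 6 bp apart, and that of HSF1 replicate 1 lay 213 bp from the MYC summit. The RAD52 peaks of HSF1 and of MYC that recur in both lists were therefore not at the same position. The 151 bp centred on the HSF1 replicate 2 summit (chr12:914225-914375, GRCh38, plus strand) are shown because this is the only promoter site with both HSF1 lists, and they hold no capital letters because neither an E-box nor a pair of opposed GAA units (GAA, 2 bases, TTC or the reverse) was found in them.
RAD52 internal site: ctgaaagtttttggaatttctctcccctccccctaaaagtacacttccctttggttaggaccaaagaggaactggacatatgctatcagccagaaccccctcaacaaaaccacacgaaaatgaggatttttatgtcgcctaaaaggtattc

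In the FA core complex, the ubiquitin ligase of the pathway, MYC enrichment spread from the highest value of all 34 genes to one of the lowest. FANCF, an adaptor subunit with 1 annotated start, had 36.6 in MYC replicate 1 and 13.4 in replicate 2, with summits 113 and 97 bp downstream. The mean of 24.98 was the highest of the 34 genes and its SD over the 2 lists was 16.4, so its rank rests on replicate 1. FANCC had 23.4 and 17.5, and FANCE had 15.9 and 21.5, the highest replicate 2 value of the 34 genes. FANCG had 16.7 and 15.1, and FANCA had 13.04 and 7.72. FANCL, the catalytic subunit, had 14.1 in MYC replicate 1 only. FANCM, a DNA translocase that anchors the complex, had 7.20 in MYC replicate 1 only.

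FANCG was the gene where HSF1 and MYC summits coincided most closely. The HSF1 replicate 2 peak (chr9:35079792-35080020) had a fold enrichment of 6.52, a pileup of 9 and a −log10 p-value of 9.49, with its summit 3 bp downstream of the canonical start. That summit lay 4 bp from the summit of MYC replicate 1 and 0 bp from that of MYC replicate 2. HSF1 replicate 1 had no peak there. Its nearest peak, of 3.44, was 7065 bp downstream of the FANCG start and 252 bp upstream of the start of VCP, which encodes an AAA ATPase of protein quality control.

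FANCD2, the ubiquitinated target of the core complex, had MYC values of 11.8 and 12.3, and its partner FANCI had 14.6 in MYC replicate 1 only. PARP1, which binds DNA strand breaks and is the target of PARP inhibitors, had 19.4 and 12.6. None of these 3 genes had an HSF1 promoter peak.

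**Figure D2:**
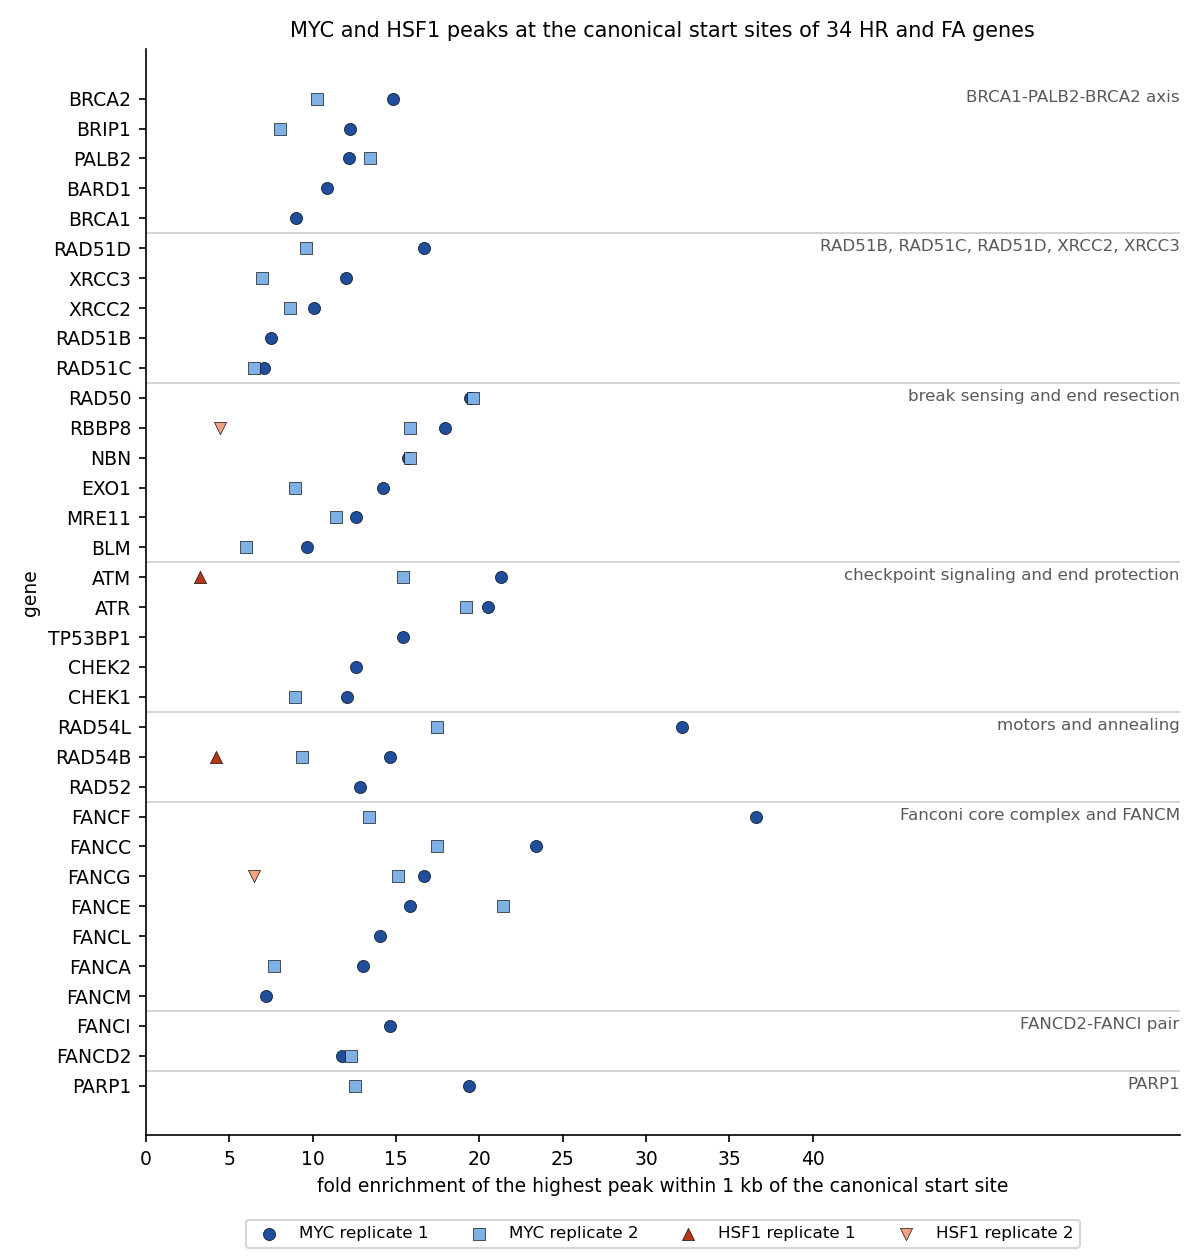
Each point is the fold enrichment (x axis) of the highest peak within 1 kb of the canonical start site of a gene (y axis, grouped by role), with the 4 lists as different symbols and no point where no peak was called. All 34 genes have a MYC replicate 1 point, 25 have a MYC replicate 2 point, and 4 genes have 1 HSF1 point each, between 3.25 and 6.52.

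MYC enrichment at these genes lay near that of other genes. Over the 25 genes with a canonical-start peak in both MYC lists the median of the mean fold enrichment was 12.8, beside 14.2 over 7318 protein-coding genes. In MYC replicate 1 the 34 genes had a median of 14.1 and all genes 14.4, and in MYC replicate 2 the medians were 12.3 and 11.6. The 2 MYC lists ordered the genes in part alike. Over the 27 genes with a promoter peak in both lists, at any start site, Pearson's r was 0.50 and Spearman's rho 0.65. This is a description across genes that share the same libraries, background and differing numbers of start sites. The 2 RAD52 values came from peaks with summits 41167 bp apart, and both BRCA1 values from peaks at the NBR1 start. Replicate 1 was higher at 22 of the 27 genes (81.5%), beside 81.1% of all genes. FANCF, RAD54L, FANCC, ATR and RAD50 had the highest means, and RAD51C, BLM, XRCC2, XRCC3 and BRIP1 the lowest. Within each of these sets of 5 the 2 lists overlapped between neighbours in the order.

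**Figure D3:**
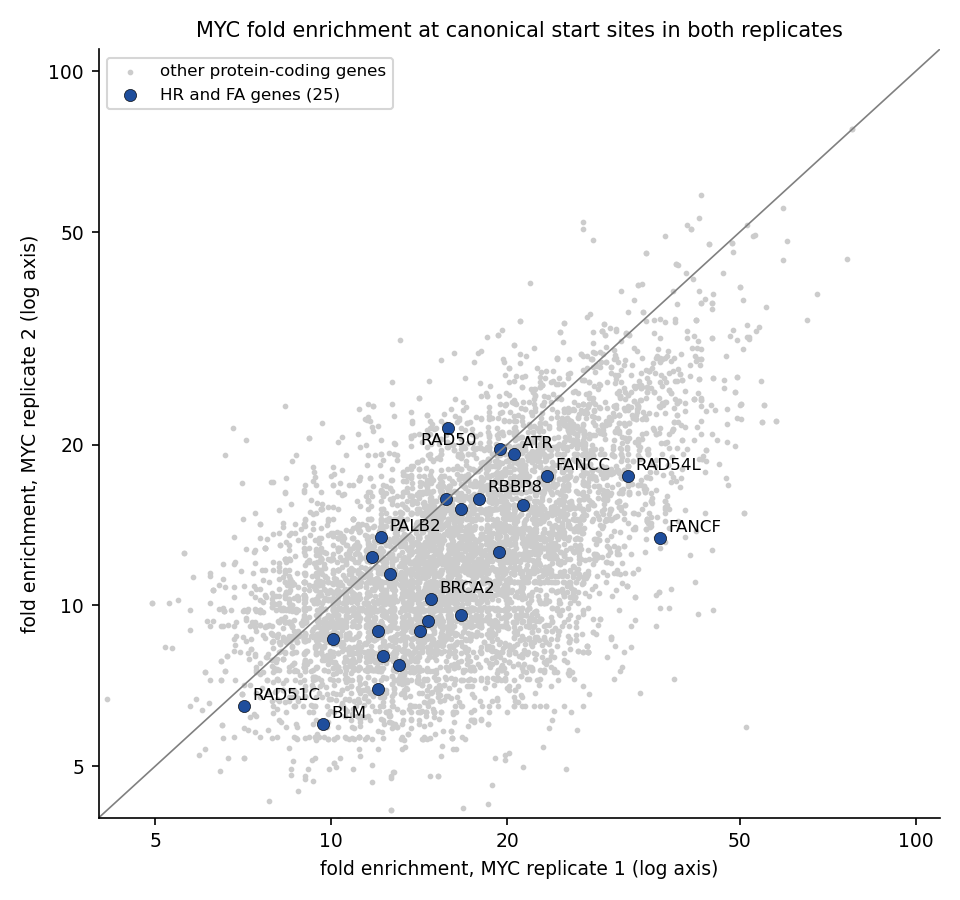
Each point is a gene with a canonical-start peak in both MYC lists, with the fold enrichment of replicate 1 on the x axis and of replicate 2 on the y axis (both log axes, with the line of equality), in blue for 25 HR and FA genes. The blue points lie within the cloud of the other genes, and FANCF has the highest replicate 1 value among them at 36.6.

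The 7 genes with a promoter peak in MYC replicate 1 only were BARD1, RAD51B, CHEK2, FANCI, FANCL, FANCM and TP53BP1. Their replicate 1 fold enrichment had a median of 12.6 (range 7.20 to 15.4), beside 14.8 (7.10 to 36.6) for the 27 genes in both lists, and the ranges overlapped. Over all genes these medians were 10.9 and 16.7. With the canonical start only, BRCA1 and RAD52 joined the 7, and none of the 34 had a peak in MYC replicate 2 only. Over all 20033 genes, 3056 had a promoter peak in MYC replicate 1 only and 221 in replicate 2 only.

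MYC summits sat just downstream of the start sites. In MYC replicate 2 the summit lay downstream of the canonical start at 21 of 25 genes (84.0%), beside 49.7% of all genes with such a peak, and within 200 bp of it at 22 (88.0%), beside 47.8%. In MYC replicate 1 it was downstream at 21 of 34 genes (61.8%), beside 35.7%, and within 200 bp at 25 (73.5%), beside 57.3%. The median positions were 30 bp and 130 bp downstream in replicates 1 and 2, beside 115 bp and 11.5 bp upstream over all genes. The members were more concentrated downstream of the start than all genes in each list, without a test.

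**Figure D4:**
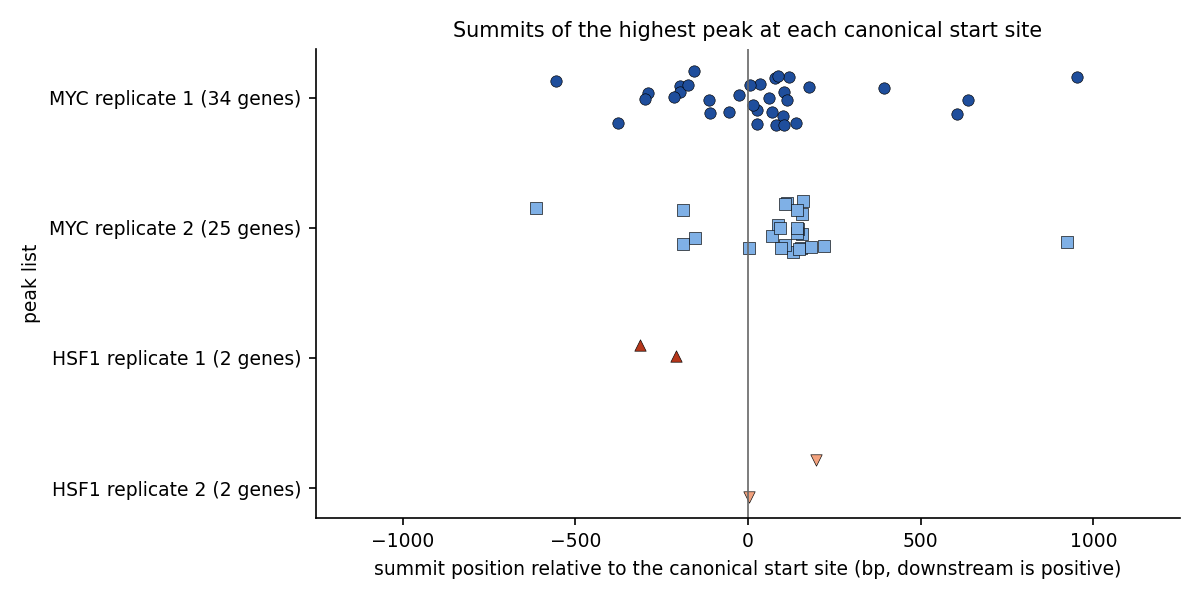
Each point is the summit of the highest peak at the canonical start of a gene, by its distance in bp from that start (x axis, downstream is positive) in each list (y axis, points spread vertically for legibility only). Most MYC replicate 2 summits gather between 70 and 220 bp downstream, and the outer points belong to RAD54L and CHEK1.

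The promoters were CpG-rich and often shared. Of the 34 canonical starts, 33 (97.1%) had a CpG ratio above 0.6 over 601 bp, beside 68.1% of all genes, while the median GC content was 63.6% and 63.9%. An opposite-strand start of another gene lay within 1 kb of 15 of the 34 starts (44.1%), beside 23.1% of all genes. These neighbours included NBR2 for BRCA1, ZAR1L for BRCA2, DCTN5 for PALB2, TEX14 for RAD51C, ANKRD49 for MRE11, NPAT for ATM and HSCB for CHEK2. MYC had a peak in both lists at 12 of these 15 genes (80.0%) and at 15 of the other 19 (78.9%). Over all genes these shares were 63.5% and 33.0%. Peaks in this paragraph were counted at any start site of a gene. BRCA1 and RAD52 entered these counts without a peak in both MYC lists at their canonical starts. MYC had a peak in both lists at 53.8% of all genes with a CpG ratio above 0.6 and at 10.7% of the rest, beside 26 of the 33 HR and FA genes above 0.6 (78.8%). CpG content and shared starts thus moved with MYC peaks across genes, and their part in the high MYC share of the HR and FA genes was not tested. Reads at a shared promoter cannot be divided between its genes.

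Most HSF1 promoter peaks of the members would not have passed the stricter threshold used for MYC. In both lists together there were 9 of them, at 8 genes. Of the 9, 8 had a −log10 p-value under 10, the threshold at which the MYC peaks had been called. The exception was RAD52 in replicate 2, at 31.7. The share of all genes' HSF1 promoter peaks under 10 is not given here, so the 8 of 9 stands without a background. Counted by gene and in both lists, a different unit, 699 of all genes had an HSF1 promoter peak. At a p-value of 1e-10, 255 still did. In HSF1 replicate 1 the values ran from 3.25 at ATM to 5.07 at RAD52, beside a median of 5.00 over all genes with a promoter peak in that list. In HSF1 replicate 2 the values were 4.43 at RBBP8, 6.52 at FANCG and 11.4 at RAD52, beside a median of 5.19. A MYC peak of either list overlapped 5 of the 6 peaks of replicate 1 (the exception was CHEK2) and all 3 of replicate 2, beside 89.6% and 85.3% of all genes' promoter peaks in these lists, so the overlap was near the general rate. The heat shock element, searched as 3 GAA units in alternating orientation over 13 bp on both strands, was found in 0 of the members' 6 and 3 promoter peaks, beside 8.61% and 11.7% of all genes' promoter peaks in HSF1 replicates 1 and 2. With so few peaks a share of that size could not be told from 0.

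By count, HSF1 peaks of this gene set were more numerous inside RAD51B (11 and 8) than at all the promoters together (6 and 3). The stretch searched in RAD51B was long, and these counts are not adjusted for length. RAD51B spans 910.4 kb of chromosome 14 over all its transcripts. Within it and over 1 kb from its start sites MYC replicate 1 had 27 peaks, MYC replicate 2 had 10, HSF1 replicate 1 had 11 and HSF1 replicate 2 had 8. The peaks from position 68495107 onward, in all 4 lists, lay past the end of the canonical transcript. They were inside the gene only through transcripts that extend farther. In the other 33 genes the same search found 7 MYC peaks, all in replicate 1, and no HSF1 peak. Among 323 protein-coding genes of at least 500 kb, a comparison chosen after these values were seen, the median was 0.13 peaks per 100 kb in MYC replicate 1 and 0 in the other 3 lists. RAD51B had 2.97, 1.10, 1.21 and 0.88, and between 1 and 3 of the 323 genes were higher in each list. RAD51B was thus one of the long genes with the most peaks of both factors, with a weak promoter peak in 1 list.

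The peaks in and next to RAD51B formed 30 separate intervals, of which 12 held an HSF1 peak and 11 of these 12 also a MYC peak. HSF1 peaks of both replicates were found in 5 intervals and MYC peaks of both in 10, and 3 intervals held peaks of all 4 lists. The highest MYC replicate 1 value was at chr14:68210570-68211390, 390.8 kb downstream of the canonical start, with 33.0 and 16.2 for MYC and 7.70 and 7.53 for HSF1. Its 4 summits lay between positions 68210944 and 68211028. The highest HSF1 values were at chr14:68232671-68233682, with 12.9 and 16.2, where MYC replicate 1 had 10.3 and MYC replicate 2 no peak. This was also the only one of the 30 intervals with a heat shock element of 3 units, which lay 707 and 475 bp from the HSF1 summits. The HSF1 replicate 2 peak held the element, and the HSF1 replicate 1 and MYC replicate 1 peaks of this interval did not. Over all peaks, 10.2% and 13.6% of those in HSF1 replicates 1 and 2 held a heat shock element, and 0.734% and 0.783% of the MYC peaks.

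Both intervals are shown because they carry the highest MYC replicate 1 value and the highest HSF1 values in the gene. In MYC replicate 2 the highest value, 17.4, was in another interval (chr14:68476269-68477022). Neither window overlaps an annotated exon. The first is 151 bp centred between the HSF1 summits of the MYC-high interval (chr14:68210940-68211090, GRCh38, plus strand), which holds neither motif. The second is 101 bp around the heat shock element of the HSF1-high interval (chr14:68233469-68233569, plus strand), with the element in capitals.
MYC-high interval: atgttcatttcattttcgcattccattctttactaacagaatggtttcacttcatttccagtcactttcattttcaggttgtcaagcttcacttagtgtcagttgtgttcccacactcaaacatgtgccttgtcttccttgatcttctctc
HSF1-high interval: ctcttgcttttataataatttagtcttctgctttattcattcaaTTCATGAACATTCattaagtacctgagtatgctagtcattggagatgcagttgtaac
Farther along the gene, an interval 727.2 kb downstream held all 4 lists, with HSF1 values of 9.18 and 8.66 and MYC values of 10.7 and 6.47. These values were not at one position. The HSF1 summits were at 68549284 and 68549196, and the MYC summits at 68548250 and 68548176. The HSF1 peaks nearer the MYC summits had 3.78 and 4.49. The last interval, 875.2 kb downstream, had 5.38 and 4.46 for HSF1 beside 19.7 and 5.41 for MYC. Its 4 summits lay 112 to 288 bp from the start of a separate long noncoding RNA gene. A pair of opposed GAA units (TTCATGAA) began at position 68695523, between its HSF1 summits. In the 151 bp windows searched for such pairs, the other intervals with both HSF1 lists held none. How often such a pair occurs in other peaks was not counted. Both of these intervals lay past the end of the canonical RAD51B transcript.

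**Figure D5:**
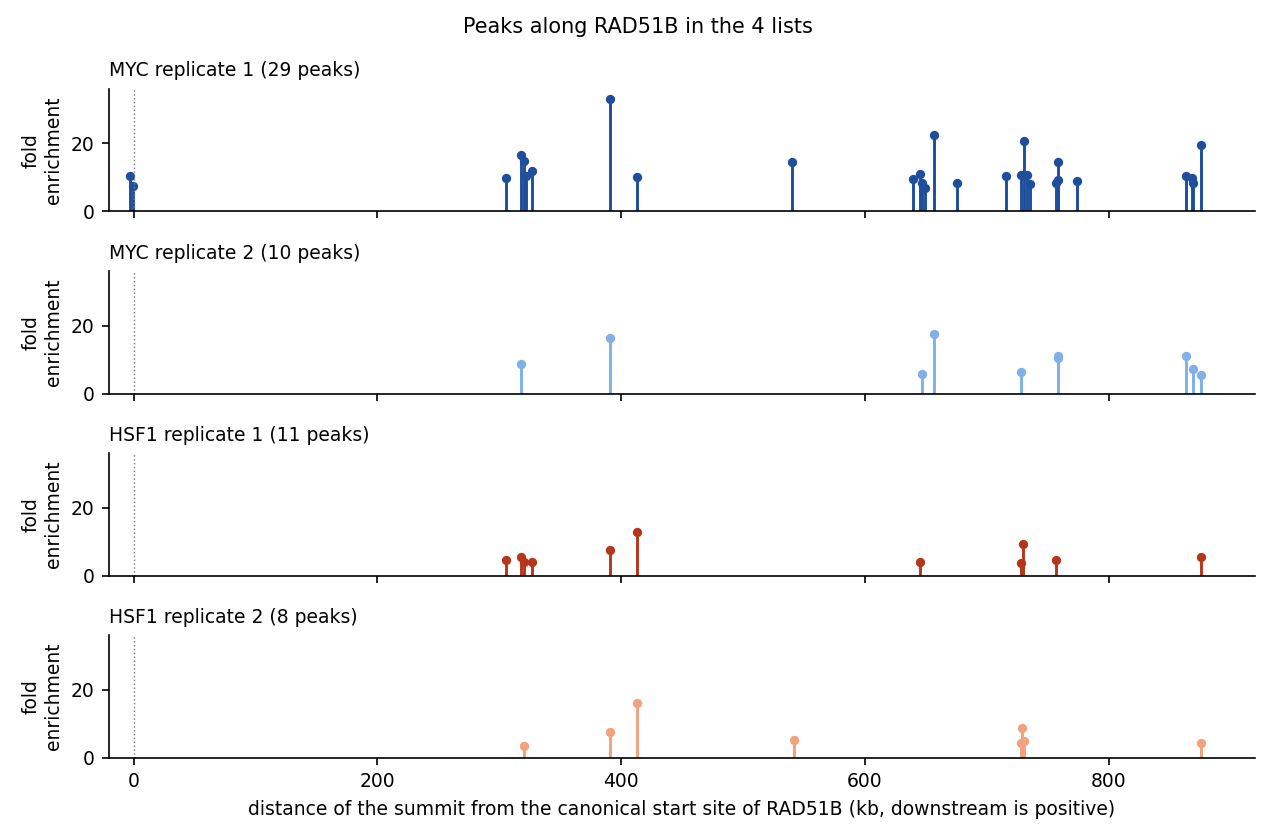
Each panel is a list, with the distance of each summit from the canonical start of RAD51B in kb on the x axis and its fold enrichment as the height of the line. HSF1 lines appear from about 305 kb onward and are highest near 413 kb, and MYC replicate 1 has 29 lines, 1 of them within 1 kb of the start.

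Other genes of the pathway and of neighbouring pathways also had MYC peaks at higher shares than all genes. Of 54 other HR and FA genes, 33 (61.1%) had a MYC promoter peak in both lists and 4 (7.41%) an HSF1 peak in both. Of 44 replication genes the counts were 34 (77.3%) and 2 (4.55%), and of 17 end joining and mismatch repair genes 13 (76.5%) and 2 (11.8%). The HSF1 genes among the 54 were SWSAP1 (5.29 and 7.14), RMI1 (3.76 and 7.15), ERCC4 (3.80 and 4.16) and MDC1 (4.78 and 2.92). The 79.4% of the 34 genes thus stood beside shares of 61.1% to 77.3% in the other lists, and all 4 were above 40.1%.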

How the data were processed

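Peak lists of 4 CUT&RUN libraries were analysed. The authors mapped reads with Bowtie 2 to the GRCh38/hg38 genome. Peaks were called library by library against IgG, with MACS 2.2.9.1 per the file headers, at p-values of 1e-10 for MYC and 1e-04 for HSF1. Base calls were made with bcl2fastq 2.20.0 per the labels. The deposited values of a peak are its pileup, a signal in fragments at the summit, its −log10 p-value from the authors' peak caller and its fold enrichment, the ratio over IgG that the authors' caller computed. Without read counts, count models could not be used.

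Peaks on chromosomes 1 to 22, X and Y were assigned to protein-coding genes of GENCODE 44 as described with the results, and the peak with the highest fold enrichment was used per gene and list. Analyses used Python 3.11.15, pandas 2.3.3, numpy 2.4.6 and pysam 0.24.0, and figures matplotlib 3.10.9. Gene assignment was tested on simulated data. In each of 20 runs 200 peaks were planted, some within 1 kb of a chosen start site and the rest farther away. All peaks planted within 1 kb were found, and the assignments were exactly those of an exhaustive search. In all, 17 alternative settings were computed.

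The members and lists were chosen with earlier results of these data known. By the rule for named genes, values are given for every member with an HSF1 peak, the 5 highest and 5 lowest MYC means, members in 1 MYC list, BRCA1, BRCA2, PALB2, RAD51B, RAD51C, RAD51D, XRCC2 and XRCC3, and the values of other members are added for completeness. RAD51B gene-body intervals and genes of the other lists were named after their values were seen.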

Additional observations from a re-analysis of the deposited data

How the results depend on the processing

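The number of genes with a MYC peak in both lists was 27 and lay between 18 (peaks past a p-value of 1e-20, beside 28.3% of all genes) and 34 in the alternatives, and 27 to 34 when either replicate was left out. With the start sites limited to the canonical one it was 25. The HSF1 count rested on few genes. It was 1 with both lists, beside 3.49% of all genes, and the shares of all genes follow in parentheses. Without HSF1 replicate 1 it was 3 (6.85%), without HSF1 replicate 2 it was 6 (8.58%), and with a peak in either list 8 (11.9%). Within 5 kb of a start site FANCG, RAD51B and RAD52 made it 3 (5.3%). It was 0 at the canonical start only (2.58%), at a p-value of 1e-10 (1.27%) and at 1e-20 (0.589%). At shares this low a count of 0 does not set the 34 genes apart. The count with both factors moved alike. It was 1, and 1 to 4 when a replicate was left out (3 without HSF1 replicate 1, beside 5.83% of all genes, and 4 without HSF1 replicate 2, beside 7.09%). With either list it was 8 (11.4%), and within 5 kb 3 (4.48%). It was 0 at the canonical start only (2.24%), at 1e-10 (1.06%) and at 1e-20 (0.439%). It was also 0 where the peaks had to share at least 1 bp in each replicate number (2.59%). The median MYC fold enrichment of 12.8 was 11.4 to 14.4 when a replicate was left out and 15.9 at 1e-20, beside 16.4 over all genes. In other units the median was a pileup of 31.0 (33.0 over all genes) and a −log10 p-value of 30.4 (35.3). The E-box share of 14.8% was 7.41% to 8.82% when a replicate was left out, 11.8% with either list, 0% within 50 bp of the summit, 29.6% within 200 bp and 33.3% for CACGTG or CACGCG, where all genes had 3.60%, 25.9% and 31.0%. Asking for 1 list in place of both can only raise a count, a stricter p-value or a single start site can only lower it, and a wider window or a further motif can only raise a share. For the other changes the cause was not tested. No paired analysis was possible because the results are counts and medians of peak lists and come from no test. The replicate numbers entered only where peaks of the 2 factors had to share 1 bp. A missing peak says only that none was called at this depth and threshold.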

Other observations

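Outside the 34 genes, 6 of the 54 other HR and FA genes had no promoter peak in MYC replicate 1. SEM1, WDR48, RFWD3 and RNF8 had none in any of the 4 lists, and SLX4 (10.5) and TOPBP1 (7.48) had one in MYC replicate 2 only. At the other end, SWSAP1, whose product works with ZSWIM7, had the highest MYC replicate 1 value of the 54 genes, 37.2. Among the replication genes, TIMELESS, which encodes a fork protection factor, had 49.4 and 22.4 for MYC and an HSF1 peak of 4.33 in replicate 2 only. PRIM2, the large subunit of primase, had HSF1 values of 9.57 and 10.6 beside 23.8 and 15.9 for MYC. CDC6, a licensing factor, had HSF1 values of 7.50 and 6.71 with a MYC value of 19.9 in replicate 1 and no peak in replicate 2.

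The one E-box near a MYC summit in both lists inside RAD51B was in an interval 758.7 kb downstream of the canonical start. There MYC replicate 1 had 9.18 and MYC replicate 2 had 11.2, and neither HSF1 list had a peak. The E-box lay in the MYC replicate 1 peak but outside the MYC replicate 2 peak. This interval was past the end of the canonical RAD51B transcript.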
